A study of Mus musculus with 6 samples.

Results

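Notch signalling is represented here by 10 genes: the receptors Notch1, Notch2, Notch3 and Notch4, the ligands Jag1 and Jag2, and the target and modulator genes Hes1, Hey1, Dtx1 and Nrarp. They were taken by name from the gene names of the arrays, 10 of 34650, by a rule that uses no measured value, and 12 probes carry those names. The genes themselves were chosen with earlier results of these data known. The samples were bone marrow cells of Spred1 KO mice (KO, 3 arrays) and of wild-type mice (WT, 3 arrays), all labelled as strain C57BL/6. The sort kept c-Kit+ Sca-1+ cells that lacked CD48 and lineage markers, which enriches haematopoietic stem cells and early progenitors, and RNA of each sample was labelled with Cy3 and hybridised to its own 1-colour array. Spred1 encodes a protein that dampens signalling from Ras to ERK. How the Spred1 allele was made, the animals' age and sex, and whether a sample is 1 animal or a pool are not given in the sources used here. The p-values therefore set a difference only against the spread between these samples, and that spread may be technical.

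A Notch receptor is a surface protein that is cut when it binds a Jagged or Delta-like ligand on a neighbouring cell. Its intracellular part then enters the nucleus, joins the DNA-binding protein RBPJ and a Mastermind coactivator, and switches on target genes, among them the transcriptional repressors Hes1 and Hey1 and the feedback regulators Nrarp and Dtx1. In blood formation Notch1 is known for directing early progenitors towards the T lineage, and Notch2 is a receptor of immature haematopoietic cells.

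The probes that carry the results are 60 bases long, and 30 bases of each are shown so that the pairs of probes for Notch1 and Notch2, and the probes of the dim genes Jag1 and Hes1, can be told apart. Letters are as listed in the scanner files, 5′ to 3′, and the capitals in the Hes1 probe mark the letters of a polyadenylation signal, AATAAA.
Notch1, upstream probe, bases 1 to 30: tcctgcagtggagggggccttgagacaggc
Notch1, downstream probe, bases 1 to 30: ttgcttctttccaaaatcgaaaagaaagaa
Notch2, upstream probe, bases 1 to 30: tcttcaccacactctgcatctgactggtca
Notch2, downstream probe, bases 1 to 30: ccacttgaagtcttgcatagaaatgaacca
Jag1, bases 1 to 30: ggagtattctcataagctagttgaatactt
Hes1, bases 30 to 59: ttgagaaaatatAATAAAagagtgaaggct
AATAAA stands in 1 of the 12 probes and in 10.1% of all probes. The Hes1 probe holds 26.7% G or C, where the median over all probes is 43.3%, and only 0.91% of probes hold less. Positions below are those of the scanner files, on mouse build mm9, and no annotation of exons or untranslated regions on that build was used here. The upstream Notch1 probe lies at chr2:26319440-26319499 and the downstream one at chr2:26314630-26314689, both on the minus strand. The Notch2 probes lie at chr3:97951233-97951292 (upstream) and chr3:97953914-97953973 (downstream), on the plus strand. Jag1 was read at chr2:136907433-136907492 on the minus strand and Hes1 at chr16:30067820-30067879 on the plus strand.

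Levels are given as log2 of the processed signal minus the 75th percentile of the same array, so that 0 means a signal equal to that percentile. That percentile lay between 346 and 382 signal units on the KO arrays and between 369 and 417 on the WT arrays. Between 52.3% and 53.4% of spots were called well above background by the scanner software on the 6 arrays, and no spot was saturated. Spred1 itself was read by 3 probes that moved apart, at 2.44 ± 0.16 SE, -0.98 ± 0.09 SE and -0.14 ± 0.10 SE, KO minus WT (limma adjusted p = 0.013, 0.053 and 0.584 among 27809 probes, of which 0.0324% were called). Which exons the allele removes is not stated, so none of the probes checks the labels. The array barcodes in the file headers carry 2 numbers after the slide, taken here as the position on it. The second number was 4 for all KO arrays and 2 for all WT arrays, so genotype and this position cannot be told apart. KO and WT replicates 1 and 2 shared a slide, and replicates 3 the other.

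The list of genes for the sorted cells was well above background on every array, 9 of 9, among them Kit, Ly6a (Sca-1), Cd34 and Procr. It also held the transcript of Cd48, whose surface protein the sort selected against, at -0.07 in KO and -0.19 in WT by mean log2 level. By mean signal, 5 of these 9 genes were higher and 4 lower in KO. Only Slamf1, a stem cell marker, had an unadjusted limma p under 0.05, where 5.24% of all gene names were lower at that level. Its difference was -0.57 ± 0.22 SE (limma adjusted p = 0.399), and its genotypes overlapped. Summed signals of the marker lists below are in multiples of the 75th percentile. Neutrophil markers stood apart on WT replicate 1, where their sum was 95.1, while the KO arrays lay at 327 to 431 and the other WT arrays at 482 and 513. Multipotent progenitor markers summed to 53.0 to 62.7 on the KO arrays and to 42.2 to 46.7 on the WT arrays, with no overlap. Of all single gene names, 9.36% lay wholly higher in KO. The brightest genes of that list, Flt3 and Cd52, weigh most in its sum. Their mean log2 levels were 4.83 and 4.49 in KO and 4.42 and 4.08 in WT. T and NK cell markers (18.0 to 21.1 in KO, 17.2 to 19.6 in WT), B cell markers (8.82 to 10.6 in KO, 8.69 to 10.3 in WT), monocyte markers (5.71 to 8.29 in KO, 5.30 to 7.87 in WT) and erythroid markers (7.05 to 7.82 in KO, 5.56 to 9.09 in WT) overlapped between genotypes. So did megakaryocyte (19.9 to 24.8 in KO, 18.1 to 22.8 in WT), endothelial (15.2 to 16.8 in KO, 14.4 to 15.7 in WT) and stromal markers (9.21 to 11.9 in KO, 7.28 to 9.41 in WT), thymic progenitor markers (3.22 to 3.51 in KO, 3.41 to 4.11 in WT) and the genes for the sorted cells (276 to 318 in KO, 283 to 300 in WT).

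None of the 10 Notch genes passed the threshold of an adjusted limma p of 0.05. Tested were the 9 that stood well above background on every array of KO, of WT or of both, and 6 of them had higher and 3 lower mean signal in KO. At an unadjusted limma p under 0.05, Notch1 was higher and Jag1 lower. Jag1 was among those tested only through its WT arrays, where its signal was higher. Over all 19611 gene names tested, 0.0204% were called at the adjusted threshold, and at the unadjusted level 6.96% were higher and 5.24% lower in KO. Over probes, 0 of the members' 10 tested probes were called by limma, and the same upstream Notch1 probe (higher) and Jag1 probe (lower) had an unadjusted p under 0.05, where 6.63% of all probes were higher and 4.85% lower. Notch1 and Jag1 are also the only members whose genotypes did not overlap, where 9.36% of gene names lay wholly higher in KO and 10.2% wholly lower. The median difference of the 9 members was 0.17 on the log2 scale, KO minus WT, where the median of all gene names was -0.01. It lay between -0.04 without KO replicate 2 and 0.45 without KO replicate 1, so its sign rests on KO replicate 2.

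**Figure D1:**
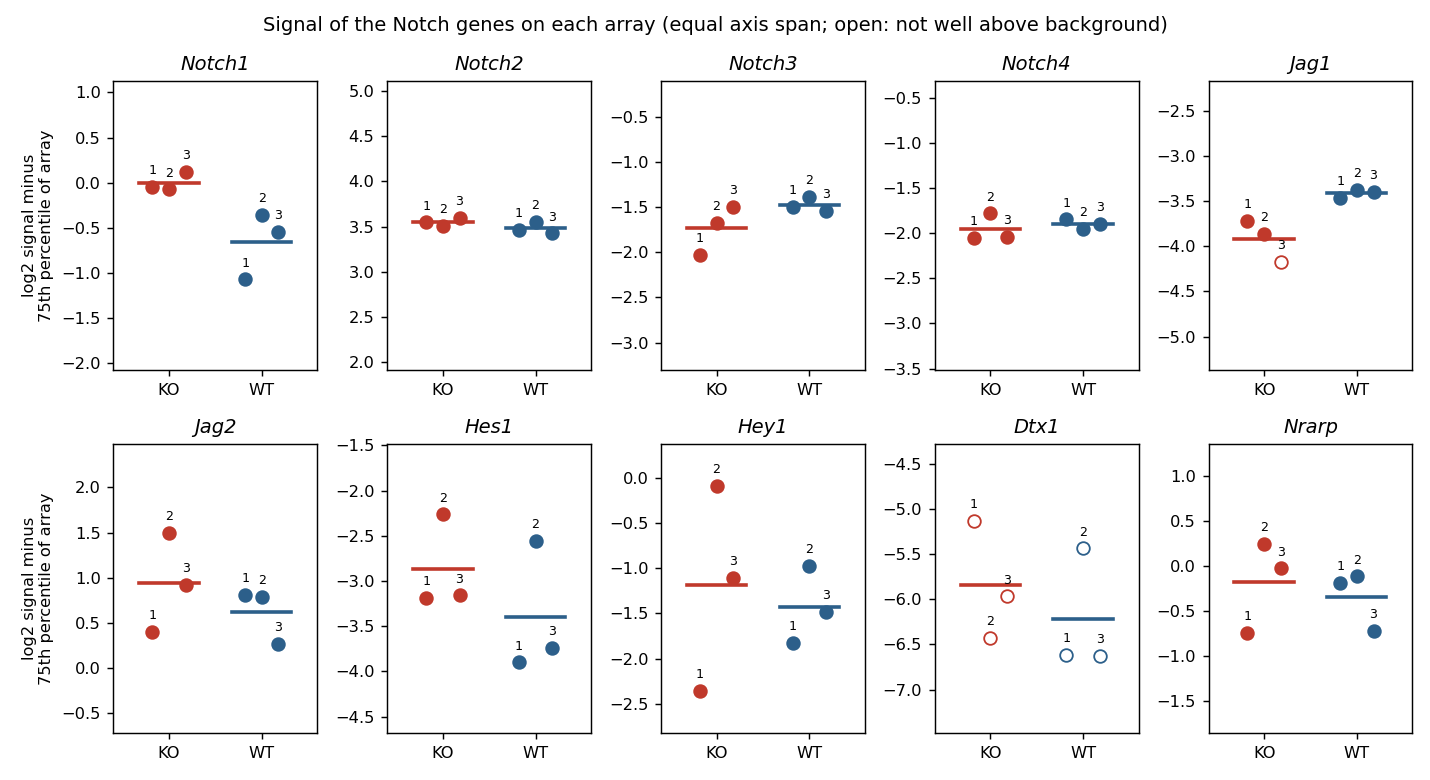
Log2 signal of each Notch gene minus the 75th percentile of the array (vertical axis, same span in each panel) for the 3 KO and the 3 WT arrays. Points are arrays with their replicate numbers, bars are means, and open points were not well above background. Only Notch1 and Jag1 separate the genotypes, Hes1 and Hey1 spread widely within each genotype, and Dtx1 is below the detection limit on all 6 arrays.

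Among the receptors, Notch1 differed most between the genotypes. Its upstream probe, the brighter of its pair and the one that stands for the gene, measured -0.05, -0.07 and 0.12 on KO replicates 1, 2 and 3 and -1.07, -0.35 and -0.54 on WT replicates 1, 2 and 3. Every KO array lay above every WT array, the KO arrays sat close together, and WT replicate 1 was the lowest. The difference was 0.65 ± 0.19 SE on the log2 scale, or 1.57-fold (95% interval of the log2 difference 0.21 to 1.10, unadjusted limma p = 0.0102, adjusted p = 0.366, exact two-sided permutation p = 0.1). An exact p of 0.1 is the smallest that 3 against 3 arrays allow. The difference was 0.65 among the arrays of slide 1 and 0.66 between the pair on slide 2. Between the KO and WT arrays of replicate numbers 1, 2 and 3 it was 1.02, 0.28 and 0.66. Without WT replicate 1 it was 0.45 ± 0.11 SE (limma adjusted p = 0.586), with every KO array still above the WT arrays that remained.

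The downstream Notch1 probe did not show this order. Its processed signals were 11.1, 25.5 and 19.5 on KO replicates 1, 2 and 3 and 30.5, 55.3 and 17.8 on WT replicates 1, 2 and 3, and it was well above background on 2 arrays of each genotype. It was therefore not tested over all probes. The KO mean was -4.34 ± 0.56 and the WT mean -3.67 ± 0.76 (SD, n = 3 each), the opposite order to the upstream probe, with overlap and an exact permutation p of 0.4. The scanner software's own error, from a model with a fixed proportional part, ran for these spots from 13.2% to 39.8% of the signal, while for the upstream probe it ran from 10.1% to 10.3%. The Notch1 difference thus rests on 1 probe.

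Multipotent progenitor markers also had higher mean signal in KO, in all 4 that were tested, and none passed the adjusted limma threshold. The cytokine receptor gene Flt3 (0.42 log2) and the chromatin organiser gene Satb1 (0.46) were higher at an unadjusted limma p under 0.05 (background 6.96%). A higher mean was not particular to this list. It was seen in 5 of 5 stromal, 7 of 8 neutrophil, 5 of 6 T and NK cell and 5 of 7 monocyte markers tested. Endothelial markers were higher in 3 of 8, and all gene names in 9477 of 19611. The lowest array was WT replicate 2 for Flt3, WT replicate 3 for Satb1 and WT replicate 1 for Notch1. In a sorted mixture such as this, more cells of a type and more RNA per cell cannot be told apart. The part of multipotent progenitors in the Notch1 difference was not tested. Of the 9 T and NK cell markers, 6 (Cd3e, Cd4, Cd5, Lck, Nkg7 and Klrb1c) were well above background on all 6 arrays, Cd3d on 1 array of each genotype, and Cd3g and Cd8a on none. Of the 5 thymic progenitor markers, Gata3 and Cd7 were well above background on all 6 arrays, and Ptcra, Tcf7 and Bcl11b on none.

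Notch2 was the steadiest member. Its downstream probe, which stands for the gene, measured 3.55, 3.51 and 3.60 on the KO arrays and 3.47, 3.55 and 3.43 on the WT arrays. The genotypes overlapped, and the difference was 0.07 ± 0.08 SE (95% interval -0.12 to 0.26, limma adjusted p = 0.717). Its pooled SD between arrays of a genotype was 0.056, and only 5.44% of the gene names tested varied less. The upstream Notch2 probe, much nearer to background with processed signals of 36.3 to 69.8 in KO and 52.7 to 53.3 in WT, had a difference of 0.01 ± 0.26 SE (adjusted p = 0.984 by limma among all probes).

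Notch3 and Notch4, receptors known from vascular cells among others, lie on chromosome 17 and were well above background on all 6 arrays. Notch3 measured -2.03, -1.67 and -1.50 on the KO arrays and -1.50, -1.39 and -1.54 on the WT arrays, with KO replicate 1 the lowest and KO replicate 3 within the WT range. Its difference was -0.26 ± 0.14 SE (95% interval -0.60 to 0.09, limma adjusted p = 0.489). Notch4 measured -2.06, -1.78 and -2.04 on the KO arrays and -1.85, -1.95 and -1.90 on the WT arrays. It differed by -0.06 ± 0.10 SE (95% interval -0.31 to 0.19, limma adjusted p = 0.811), and its sign turned under normexp background correction (0.01). Of the 10 endothelial markers, 7 were well above background on all 6 arrays, among them Kdr, Tie1 and Emcn, and 2, Cdh5 and Sox17, on none.

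**Figure D2:**
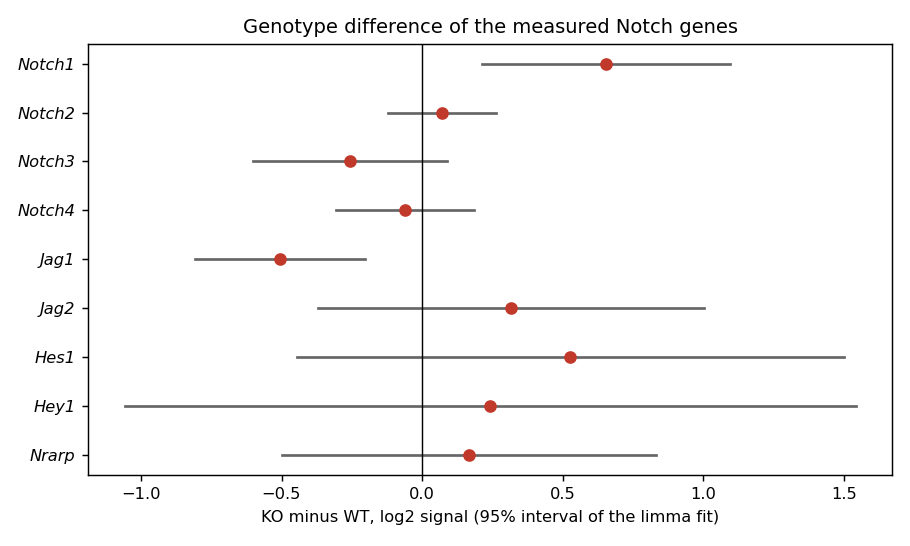
KO minus WT difference in log2 signal (horizontal axis) of the 9 Notch genes tested; points are the differences and lines their 95% intervals from the limma fit, not adjusted for the number of genes. The intervals of Notch1 (0.21 to 1.10) and Jag1 (-0.81 to -0.20) leave out 0, the interval of Notch2 is the narrowest and that of Hey1 (-1.06 to 1.54) the widest.

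Of the ligands, Jag1 was lower in KO by its means and lay near the detection limit. Its processed signals were 26.6, 26.2 and 19.2 on KO replicates 1, 2 and 3 and 37.8, 39.0 and 35.1 on WT replicates 1, 2 and 3, with a scanner error of 4.44 to 6.41 units. The genotypes did not overlap. KO replicate 3 was not well above background, so Jag1 was tested only through its WT arrays, where it was higher. The difference was -0.51 ± 0.13 SE on the log2 scale, which put KO at 70.4% of WT (unadjusted limma p = 0.00573, adjusted p = 0.364, exact permutation p = 0.1). It was -0.37 among the arrays of slide 1 and -0.77 between the pair on slide 2. Its size depended on the setting: under normexp, which also adds an offset of 50 signal units and so compresses differences at this signal, it was -0.07 ± 0.08 SE, and under normexp with quantile normalization -0.18 ± 0.07 SE (limma adjusted p from 0.264 to 0.811 over its alternatives). Jag1 lies 19.9 Mb from Spred1 on chromosome 2. Notch1 and Nrarp share that chromosome, at distances from Spred1 of 90.7 and 92.0 Mb.

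Jag2, read at chr12:114146887-114146946, was well above background on all arrays and followed no genotype. It measured 0.40, 1.50 and 0.92 on the KO arrays and 0.81, 0.79 and 0.27 on the WT arrays. KO replicate 2 was the highest array and WT replicate 3 the lowest, and KO replicate 1 lay below the WT replicates 1 and 2. The difference was 0.32 ± 0.29 SE (limma adjusted p = 0.648, exact permutation p = 0.4). Dll1 stayed below the background call on all 6 arrays, and Dll3 differed by 0.35 ± 0.20 SE (limma adjusted p = 0.489). Dll3 was well above background on 3 KO arrays and 2 WT arrays, so it was tested only through KO, where its mean was higher. Dll4 was well above background on 1 KO array and 2 WT arrays, with a level of -1.01 on WT replicate 2 and of -5.66 to -4.05 on the other 5 arrays. The imprinted Dlk1, a Delta-like protein outside the canonical ligands, measured -0.78, 0.23 and -0.46 on the KO arrays and -0.31, 0.07 and -1.16 on the WT arrays, a difference of 0.13 ± 0.37 SE (limma adjusted p = 0.894). As with Jag2, KO replicate 2 was its highest array and WT replicate 3 its lowest.

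Hes1, Hey1 and Nrarp had differences between genotypes that were smaller than the pooled SD within genotype, and none passed the test. Hes1, a repressor of differentiation genes, gave processed signals of 38.6, 79.6 and 38.7 on KO replicates 1, 2 and 3 and of 28.0, 68.8 and 27.7 on WT replicates 1, 2 and 3. The scanner errors were 5.99 to 9.68 units in KO and 5.44 to 8.94 in WT. KO replicates 1 and 3 lay above WT replicates 1 and 3, and WT replicate 2 lay above both, so the genotypes overlapped. The difference was 0.53 ± 0.41 SE (95% interval -0.44 to 1.50, limma adjusted p = 0.591). It was 0.22 without KO replicate 2 and 0.95 without WT replicate 2, and 0.23 ± 0.15 SE under normexp. Between the KO and WT arrays of replicate numbers 1, 2 and 3 it was 0.71, 0.29 and 0.58.

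Hey1, the related repressor read at chr3:8663432-8663491, had the widest spread of the 9. Its processed signals were 68.4, 360 and 161 on the KO arrays and 118, 206 and 132 on the WT arrays. The KO arrays ran from the lowest to the highest of all 6, a 4.82-fold range after scaling, against 1.81-fold in WT. The difference was 0.24 ± 0.55 SE (limma adjusted p = 0.860), and without KO replicate 2 it was -0.30 ± 0.42 SE. Nrarp, a small ankyrin-repeat protein that restrains Notch signalling, was read at chr2:25038038-25038097. It measured -0.74, 0.25 and -0.03 on the KO arrays and -0.19, -0.11 and -0.72 on the WT arrays, where KO replicate 1 and WT replicate 3 were the lowest. The difference was 0.17 ± 0.28 SE (95% interval -0.50 to 0.83, limma adjusted p = 0.807), with values of -0.10 on slide 1 and 0.69 on slide 2.

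Dtx1, a ubiquitin ligase that acts on Notch, gave no measurable signal. Its probe at chr5:121130278-121130337 read 9.98, 4.45 and 5.52 on the KO arrays and 4.26, 9.34 and 3.74 on the WT arrays, and none of these passed the scanner's background call. The scanner errors were 42.0% to 100.3% of these values, so no difference is given.

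The spread between arrays of a genotype was wide for the targets and Jag2 and narrow for Notch2. The pooled SD within genotype was 0.64 for Hes1, 0.86 for Hey1, 0.43 for Nrarp and 0.44 for Jag2, wider than in 98.3%, 99.3%, 94.4% and 94.8% of the gene names tested, whose median was 0.14. Those of the receptors were 0.27 for Notch1, 0.20 for Notch3, 0.12 for Notch4 and 0.056 for Notch2. Jag2, Nrarp and Hey1 had scanner errors of at most 12.5% of the signal on every array, and Hes1 of 12.2% to 21.7%. KO replicate 2 was the highest of the 6 arrays for 5 of the 9 members, Hes1, Hey1, Jag2, Nrarp and Notch4, and for 11.1% of all gene names. WT replicate 2 was the next highest for Hes1 and Hey1, and KO replicate 3 for Jag2 and Nrarp. The first barcode number was 2 for replicate 2 of each genotype and 1 for the other arrays, and the part of that position was not tested.

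**Figure D3:**
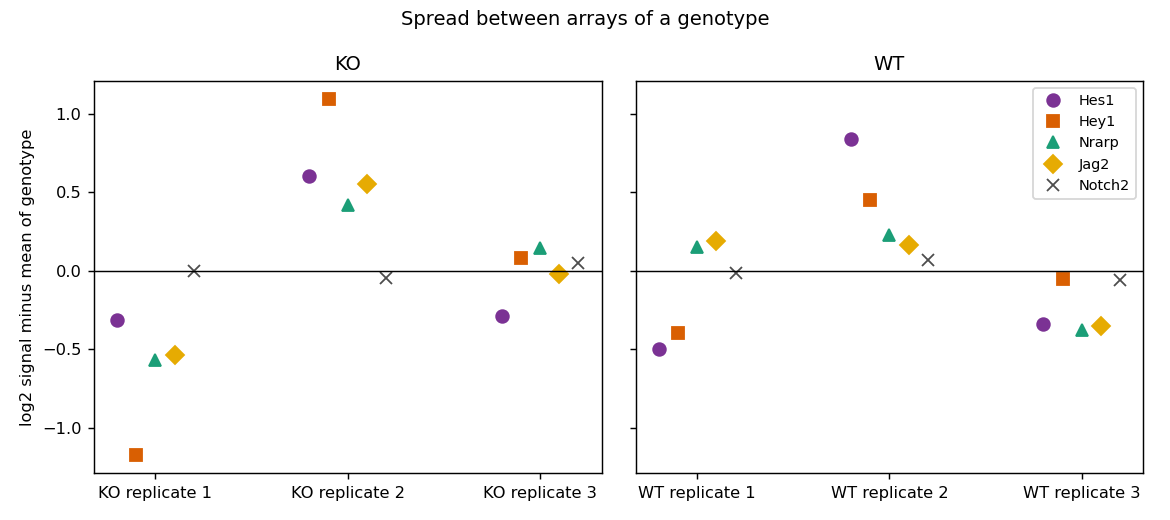
Log2 signal of Hes1, Hey1, Nrarp, Jag2 and Notch2 minus the mean of the genotype (vertical axis) on each array, KO arrays in the left panel and WT arrays in the right. The first 4 genes lie above the mean on KO replicate 2 and on WT replicate 2, while Notch2 stays close to 0 on every array.

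The wider pathway had no gene that passed the adjusted threshold. A list of 79 pathway genes had 78 on the arrays by name, and 65 were tested. By limma, 0 were called (background 0.0204%). At an unadjusted limma p under 0.05, 2 of the 65 were higher and 2 lower in KO, where the background was 6.96% and 5.24%. By mean, 33 were higher and 32 lower, and their median difference was 0.0023, beside -0.01 for all gene names. Outside the 10 members, 56 genes were tested, with 1 higher and 1 lower at the unadjusted level. The higher was Maml3.

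Nuclear partners of the receptors were well above background on all arrays. Rbpj measured 1.64 ± 0.17 in KO and 1.56 ± 0.10 in WT (SD, n = 3 each), a difference of 0.08 ± 0.11 SE (limma adjusted p = 0.761). Of the Mastermind genes, Maml1 differed by -0.02 ± 0.11 SE and Maml2 by 0.20 ± 0.15 SE. Maml3 measured 1.84, 1.92 and 1.82 on the KO arrays and 1.50, 1.67 and 1.42 on the WT arrays. These did not overlap, where 9.36% of all gene names lay wholly higher in KO. The Maml3 difference was 0.33 ± 0.10 SE (limma adjusted p = 0.366). Corepressors that hold RBPJ targets silent had a median difference of -0.16, with 6 of 9 lower by mean. The corepressor scaffold Spen differed by -0.18 ± 0.08 SE and the deacetylase gene Hdac1 by -0.16 ± 0.08 SE. The genotypes overlapped for neither Spen nor Hdac1, where 10.2% of all gene names lay wholly lower in KO. Neither passed the adjusted limma threshold.

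No gene that modifies or cuts the receptors passed the test. Of the Fringe enzymes, which add sugars to the receptors and shift their ligand preference, Lfng differed by -0.33 ± 0.20 SE, Rfng by -0.09 ± 0.11 SE and Mfng by 0.07 ± 0.10 SE. Subunits of gamma-secretase, which makes the final cut, lay between -0.20 ± 0.09 SE for Aph1b and 0.07 ± 0.11 SE for Aph1a, with Psen2 at -0.04 ± 0.09 SE and Psenen at -0.11 ± 0.10 SE. Ncstn was well above background on 2 arrays of each genotype and was not tested. Among the turnover genes, the Deltex relative Dtx4 differed by 0.33 ± 0.14 SE (limma adjusted p = 0.416). Of the other Hes and Hey genes, Hes2, Hes5, Hes6 and Hes7 differed by -0.32 ± 0.17 SE, 0.03 ± 0.20 SE, -0.21 ± 0.12 SE and 0.17 ± 0.10 SE. Hes2 was well above background on 2 KO arrays and 3 WT arrays, so it was tested only through WT, where its mean was higher. Hes3, Hey2 and Heyl stayed below the background call on all 6 arrays. Of the T lineage targets outside the 10 members, Gata3 (-0.19 ± 0.10 SE), Cd3e (0.19 ± 0.11 SE), Igf1r (0.09 ± 0.10 SE) and Myc (-0.48 ± 0.22 SE) were tested and did not pass.

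**Figure D4:**
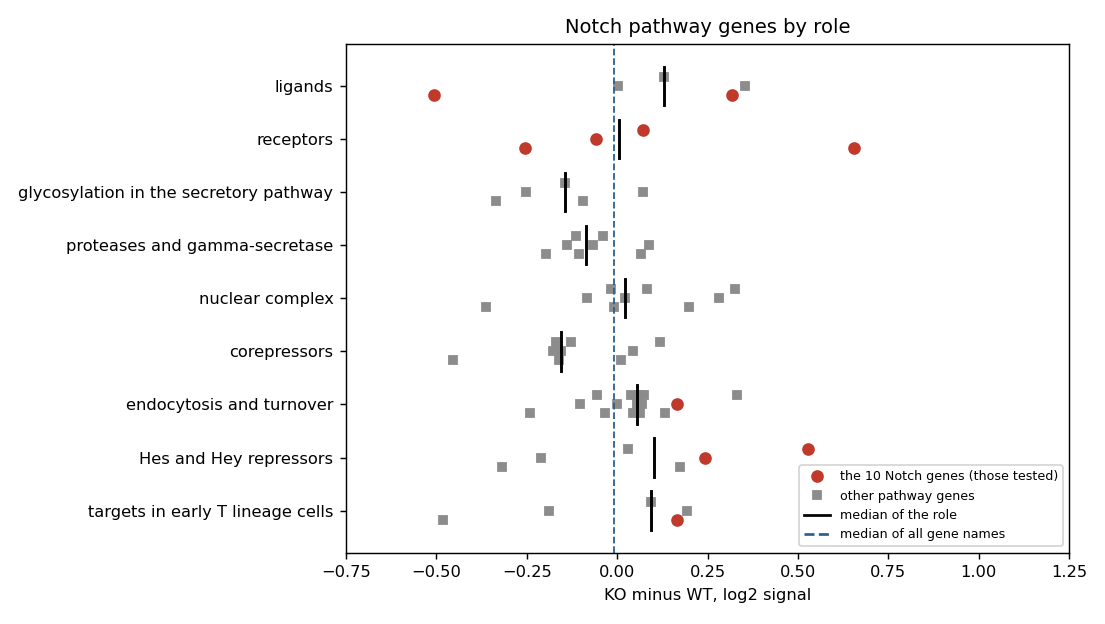
KO minus WT difference in log2 signal (horizontal axis) of the 65 pathway genes tested, by role; red circles are the Notch genes described singly, grey squares the others, black bars the median of a role and the dashed line the median of all gene names (-0.01). Notch1 (0.65) and Jag1 (-0.51) are the farthest on either side.

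Promoters were searched for 3 motifs. RefSeq promoters (build GRCm38.p6, 250 bases before to 50 after the start) were at hand for 8 of them, all but Hes1 and Hey1. The core letters of the RBPJ site, GTGGGAA on either strand, stood in 0 of these 8 and in 6.38% of all 32851 promoters. The E-box CACGTG, which Hey proteins can bind, stood in the Nrarp promoter and in 7.15% of all, and the N-box CACNAG in 5 of the 8 and in 42.5% of all. Absence from this window says only that these letters are not in it.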

How the data were processed

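The deposited scanner files hold, per the file headers, intensities from Agilent Feature Extraction 10.7.3.1 that were corrected for a spatial background trend and a multiplicative trend within the array, with surrogate values allowed near background. The authors' deposited value table holds these intensity values over a divisor fixed within each array (304 to 368), as setting it beside the scanner values showed, and served as an alternative. Its column medians were 0.0638 to 0.075. Flags per spot, deposited in the same files, gave the calls of well above background, saturation and outliers. Control spots and 92 to 155 outlier spots per array were left out, none of them a member's. Spots of a probe were averaged, log2 values were centred on the 75th percentile of each array, and the probe with the highest mean over the 6 arrays stood for a gene name. Gene names are those of the array design, and the accessions of all 12 probes carry the same symbols in RefSeq.

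Features that stood well above background on every array of KO, of WT or of both were tested with limma 3.58.1 in R 4.3.3 (lmFit, eBayes), KO minus WT without covariates, with Benjamini-Hochberg adjustment over 19611 gene names or 27809 probes and a threshold of 0.05. The fit was tested on simulated data. Alternatives were normexp (offset 50), quantile normalization, other filters, the mean of probes, the slide or replicate number as a block, and single arrays left out. In 5 gene names, none of a Notch gene, 1 array had no value. Members and lists were chosen with earlier results of these data known. The text names all members, the pathway genes of smallest p in each direction, genes of fixed roles and some of the markers, except for results that are not reported here. Cdh5, Sox17, Kdr, Tie1, Emcn, Flt3, Cd52, Satb1, Hdac1, Myc and further pathway genes were named after their values were seen. The samples' number limits precision. No label says whether the replicate numbers pair the samples. Deviations of KO and WT arrays with the same number correlated at -0.03, 0.15 and 0.07 across features. Across the 9 tested members they correlated at 0.16, 0.58 and 0.14. Arrays of different number correlated at -0.23 to 0.18 across features and at -0.49 to 0.40 across these members. With 3 arrays per genotype, these values cannot decide whether the samples were paired.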

Additional observations from a re-analysis of the deposited data

How the results depend on the processing

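None of the 10 Notch genes and none of the 65 pathway genes tested was called by limma under any of 16 alternatives, in which 1 to 3 members had an unadjusted p under 0.05. Notch1 stayed higher (0.45 to 0.81) and Hes1 higher (0.12 to 0.95) in all 16, and Jag1 lower (-0.63 to -0.07) in the 15 that measured it. Signs turned for Notch4 under normexp (0.009), for Nrarp on the arrays of slide 1 (-0.10), for Nrarp with single arrays left out (-0.0439 without KO replicate 2, -0.0226 without WT replicate 3) and for Hey1 likewise (-0.30 without KO replicate 2, to 0.83 without KO replicate 1). The cause was not tested. The members' median was -0.0439 to 0.45 with single arrays left out. The 4 gene names called became 10 under normexp, 10 under normexp with quantile normalization, 1 under quantile normalization, 1 among features well above background on all arrays, 9 with the mean of probes, and 0 without a filter (2628 at unadjusted p under 0.05), on slide 1 (1179) and with the replicate block (2132). With single arrays left out they were 0 to 7 (0 without WT replicate 1, 1544 at unadjusted p under 0.05). The 9 probes called became 15 under normexp, 3 among features well above background on all arrays, 4 without a filter, 0 on slide 1 (1680 at unadjusted p under 0.05), 0 with the replicate block (2911), and 1 to 11 with single arrays left out. With the replicate block Hes1 differed by 0.53 ± 0.12 SE (limma adjusted p = 0.425), and no member was called. KO and WT arrays of the same replicate number also shared a slide and the first barcode number, so this block stands for position too. No label says that the samples were paired, so this fit is not taken as a paired analysis. Low signal limits Jag1, Hes1, the downstream Notch1 probe and Dtx1.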
